A study of Mus musculus with 7 samples.

Results

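Hox genes encode homeodomain transcription factors that mark position along the head-to-tail axis of the body. In mammals they lie in 4 clusters, called A to D, and members with the same number (paralog group) in different clusters descend from one ancestral gene. Low-numbered genes are switched on nearest the head and high-numbered genes only toward the tail, in the order in which they lie on the chromosome, and trunk tissues keep much of this pattern into adult life. Genes of group 10 are known for patterning the lumbar region and those of group 11 the sacral region, so the set of Hox transcripts in a ganglion can be read against the level from which it was taken. The members described here were the rows whose gene symbol was Hox, a cluster letter and a number, which gave 39 of the 54309 genes in the table, in 13 paralog groups.

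The samples were dorsal root ganglia, which hold the cell bodies of the sensory neurons of the trunk and limbs, from lumbar levels L4-6 of C57bl/6 mice aged 6 to 8 weeks and labelled male. Every mouse had a sciatic nerve injury, and ganglia were collected 72 h later, either at Zeitgeber time 20 (ZT20, counted in hours from lights on; 4 samples) or at ZT8 (3 samples). The injury fell at the same clock time as the collection, so the effects of the 2 cannot be told apart. The cells were dissociated with enzymes and enriched for neurons on an albumin gradient, so other cell types of the ganglion remained in unknown number. Every sample came from one axial level and from injured animals, and the Hox levels can therefore be set against neither another level nor uninjured ganglia. The labels do not say whether replicates were separate or pooled animals, and p-values measure only the spread between these samples.

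Expression is given as TPM, a measure of transcript abundance that allows for transcript length and has the same total in every sample, so that levels of different genes can be compared within a sample. Sequencing depth is unknown from such values, and a gene listed at 0 is not shown to be absent. Between 24192 and 25238 genes were above 0 at ZT20, against 22541, 18297 and 22973 in ZT8 replicates 1 to 3, and ZT8 replicate 2 also stood apart on the first principal component (score 86.1 against 21.4 and 25.8 for the other ZT8 samples). ZT20 replicates 3 and 4 go against the label of male mice: the Y-linked gene Ddx3y was at 0 in both, and at 11.7 to 24.2 TPM in the other 5 samples. Xist, the transcript of the inactive X chromosome, reached 1.08, 2.21 and 2.30 TPM in ZT20 replicates 2, 3 and 4 and stood at 0.00467 TPM or below elsewhere. Library identifiers were numbers at ZT20 and letters at ZT8, so any batch behind them and the group cannot be told apart. Calls of Hox and partner genes named below that change without ZT8 replicate 2, or without ZT20 replicates 3 and 4, are given both ways.

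The ganglia carried a Hox profile that, apart from Hoxd1, lay mostly in groups 5 to 10, and no gene of a group beyond 10 reached a mean of 1 TPM. Of the 39 genes, 23 had a mean of at least 1 TPM over the 7 samples, 9 were lower but above 0 in some sample, and 7 were at 0 in every sample. The last gene with a mean of at least 1 TPM was Hoxa10 in cluster A, Hoxc10 in cluster C and Hoxd10 in cluster D. In cluster B, which has no members of groups 10 to 12, it was Hoxb9. Beyond these, the highest mean was 0.944 TPM (Hoxd11), and the 7 genes at 0 throughout were Hoxb1 near the head end and Hoxa11, Hoxa13, Hoxc12, Hoxc13, Hoxd12 and Hoxd13 at the tail end.

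**Figure D1:**
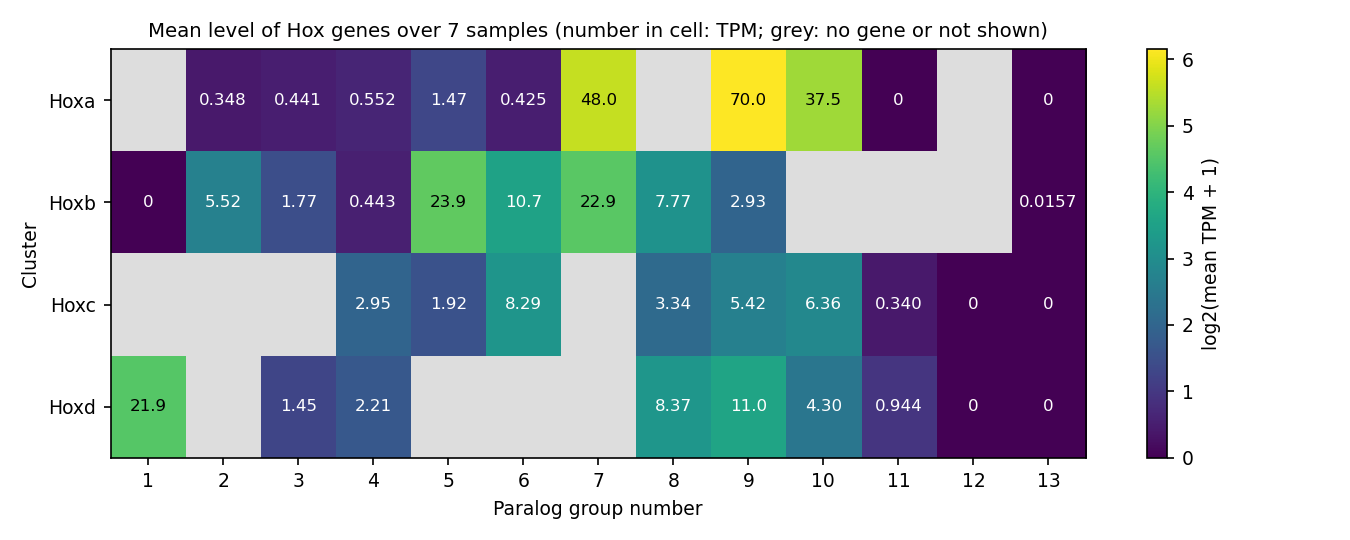
Mean TPM over the 7 samples of Hox genes, by cluster (rows A to D) and paralog group (columns 1 to 13), with the colour on a log2(TPM + 1) scale and grey cells where the mouse has no such gene or no value is shown. Levels reach 70.0 TPM at Hoxa9, and lie at 0.944 TPM or below in groups 11 to 13.

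Promoters of 5 members are shown first, as the 250 bases before the start of transcription listed in RefSeq (GRCm38.p6). They are Hoxa9 and Hoxc4, whose levels differed between the groups, Hoxa10 and Hoxa11, of which the first averaged 37.5 TPM and the second was listed at 0, and Hoxd1, which stood far above its neighbours. Hoxa9 is at chr6:52227371-52227620, Hoxa10 at chr6:52234940-52235189 (of its 2 listed starts, the one nearer the 3′ end of the gene) and Hoxa11 at chr6:52245811-52246060, all on the minus strand. Hoxc4 is at chr15:103034145-103034394 and Hoxd1 at chr2:74762730-74762979, both on the plus strand. Each is written 5′ to 3′, and capitals mark a match to one of the motifs named after the sequences.
Hoxa9: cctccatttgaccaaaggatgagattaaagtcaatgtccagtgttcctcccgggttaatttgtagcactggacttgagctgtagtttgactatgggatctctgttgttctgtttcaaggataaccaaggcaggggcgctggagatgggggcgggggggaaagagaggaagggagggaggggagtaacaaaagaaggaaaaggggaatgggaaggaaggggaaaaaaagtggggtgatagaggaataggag
Hoxa10: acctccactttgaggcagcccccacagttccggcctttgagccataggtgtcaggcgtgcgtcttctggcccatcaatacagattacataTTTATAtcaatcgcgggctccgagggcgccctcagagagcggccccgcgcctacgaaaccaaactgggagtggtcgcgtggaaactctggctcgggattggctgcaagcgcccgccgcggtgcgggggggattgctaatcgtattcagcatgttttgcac
Hoxa11: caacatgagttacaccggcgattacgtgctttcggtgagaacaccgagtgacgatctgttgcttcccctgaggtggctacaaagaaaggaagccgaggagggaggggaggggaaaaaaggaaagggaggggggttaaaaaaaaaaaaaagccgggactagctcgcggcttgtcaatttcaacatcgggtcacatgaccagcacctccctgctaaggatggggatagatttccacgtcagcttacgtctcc
Hoxc4: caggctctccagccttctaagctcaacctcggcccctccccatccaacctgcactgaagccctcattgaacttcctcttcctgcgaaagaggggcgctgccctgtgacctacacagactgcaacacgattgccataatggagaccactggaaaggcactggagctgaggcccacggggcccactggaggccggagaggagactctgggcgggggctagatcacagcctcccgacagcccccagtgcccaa
Hoxd1: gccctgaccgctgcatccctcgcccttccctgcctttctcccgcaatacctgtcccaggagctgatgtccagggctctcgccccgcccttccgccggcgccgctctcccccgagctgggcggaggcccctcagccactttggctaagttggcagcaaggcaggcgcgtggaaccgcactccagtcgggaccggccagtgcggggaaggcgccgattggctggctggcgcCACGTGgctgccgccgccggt
Motifs searched on both strands were CACGTG, the E-box that the circadian factors CLOCK and BMAL1 can bind, TATAAA, the core of the TATA box, and TGATTNAT, a site for HOX proteins paired with PBX. Hoxd1 held CACGTG at 21 bases before its start, and Hoxa10 held TATAAA on the other strand, written TTTATA above, at 160 bases. None of the motifs was found in these 250 bases of Hoxa9, Hoxa11 or Hoxc4, which says only that these letters are not in that window. The table listed 24 promoters for 22 of the 39 genes, and CACGTG was in 4 of them (16.7%; the others were Hoxd10, Hoxd11 and Hoxd13), against 6.02% of all 32851 promoters. TATAAA was in 4 of 24 (16.7%, against 12.4% of all) and TGATTNAT in 2 of 24 (8.33%, against 2.82% of all). The Hox promoters were rich in CG pairs, with a median of 12.5 against 6 over all promoters. CACGTG itself holds a CG pair, and its share was not compared at equal CG content. Among those printed the number ran from 3 in Hoxa9 to 24 in Hoxd1.

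Groups 1 to 4 act nearest the head, in the hindbrain and neck, and were mostly low. Hoxd1, which is known from nociceptors, the sensory neurons for pain, was the exception. Its level was 7.64, 24.6, 29.5 and 18.0 TPM in ZT20 replicates 1 to 4 and 27.6, 18.6 and 27.7 TPM in ZT8 replicates 1 to 3 (21.9 TPM over all samples). ZT20 replicate 1 was the lowest, and the groups overlapped. The other gene of these groups above 5 TPM was Hoxb2, a regulator of hindbrain segments and facial motor neurons, at 6.29, 7.94, 6.35 and 5.81 TPM at ZT20 and 5.03, 2.08 and 5.12 TPM at ZT8. Every ZT20 sample of Hoxb2 was above every ZT8 sample, and ZT8 replicate 2 was the lowest. Hoxc4 averaged 2.95 TPM, Hoxd4 2.21, Hoxb3 1.77 and Hoxd3 1.45 TPM over all samples. Hoxa2, Hoxa3, Hoxa4 and Hoxb4 all had means below 1 TPM.

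Groups 5 to 8 act in the lower neck, the forelimb level and the thorax, and they differed widely between clusters. Hoxa7, which takes part in patterning thoracic vertebrae, stood at 56.0, 48.3, 52.0 and 46.1 TPM at ZT20 and 44.8, 36.2 and 53.0 TPM at ZT8. Its neighbour Hoxa6 averaged 0.425 TPM and Hoxa5, known for its role in the lung and airway, 1.47 TPM. Levels in cluster A thus jumped between adjacent genes, and in Hoxa7 the groups overlapped.

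Cluster B was more even across these groups. Hoxb5, known for its role in neural crest cells that form the enteric nervous system, was at 23.6, 22.2, 29.2 and 28.0 TPM at ZT20 and 20.9, 18.8 and 24.6 TPM at ZT8. Hoxb6 was at 10.9, 9.56, 12.1 and 11.9 TPM at ZT20 and 10.4, 9.66 and 10.1 TPM at ZT8. Hoxb7 was at 23.8, 22.1, 19.5 and 21.9 TPM at ZT20 and 26.1, 20.3 and 26.5 TPM at ZT8. These 3 genes varied little between samples, with overlapping groups in each, and Hoxb6 had a coefficient of variation of 9.57%. Hoxb8, which is known from sensory circuits of the dorsal spinal cord and from the myeloid lineage, was at 1.49, 6.06, 11.0 and 7.11 TPM at ZT20 and 6.02, 7.62 and 15.1 TPM at ZT8. Its coefficient of variation of 55.1% was the highest among the 14 genes averaging 5 TPM or more, with ZT20 replicate 1 lowest and ZT8 replicate 3 highest.

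In clusters C and D, 2 genes of these groups averaged 5 TPM or more. Hoxc6, a gene of the forelimb level in motor neurons, was at 9.75, 7.73, 9.76 and 8.61 TPM at ZT20 and 3.29, 11.8 and 7.08 TPM at ZT8. Hoxd8 was at 8.85, 12.3, 9.36 and 8.95 TPM at ZT20 and 4.26, 10.5 and 4.41 TPM at ZT8. ZT8 replicate 2 lay above all 4 ZT20 samples in Hoxc6 and among them in Hoxd8, while in both genes ZT8 replicates 1 and 3 were below all ZT20 samples. Hoxc8, which specifies motor neurons of the forelimb, averaged 3.34 TPM and Hoxc5 1.92 TPM.

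Groups 9 and 10 act from the thorax to the lumbar level. At ZT20 group 9 had the highest mean sum, at 107 TPM against 72.4 TPM for group 7. At ZT8 the sums of groups 9 and 7, at 65.5 and 69.0 TPM, did not differ beyond the spread between replicates, with group 7 higher in replicates 2 and 3. The sum of group 10 was 48.2 TPM over all samples. Hoxa9 stood at 84.5, 92.4, 83.7 and 84.5 TPM at ZT20 and 60.8, 41.0 and 43.2 TPM at ZT8. The 4 ZT20 samples lay close together and above all ZT8 samples. Hoxd9 was at 10.9, 8.99, 12.4 and 14.5 TPM at ZT20 and 10.3, 8.94 and 10.6 TPM at ZT8. Hoxc9, which sets thoracic identity in motor neurons, was at 5.63, 5.41, 6.13 and 5.79 TPM at ZT20 and 3.71, 5.95 and 5.34 TPM at ZT8. In both genes the groups overlapped, and Hoxb9 averaged 2.93 TPM, with 0.138 TPM in ZT8 replicate 2.

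The group 10 genes are known for setting lumbar vertebrae and hindlimb motor neurons. Hoxa10 was at 37.5, 32.8, 41.6 and 43.9 TPM at ZT20 and 31.5, 25.3 and 50.2 TPM at ZT8. Hoxc10 was at 7.57, 7.42, 6.92 and 6.92 TPM at ZT20 and 5.08, 1.93 and 8.71 TPM at ZT8. The ZT8 samples enclosed the ZT20 samples in both, from replicate 2 at the low end to replicate 3 at the high end. Hoxd10 averaged 4.30 TPM, with 0.214 TPM in ZT8 replicate 2 and 4.07 to 6.16 TPM in the others. It shares exon sequence on the same strand with Gm28309, an annotated transcript at 0 to 9.30 TPM with its 0 in ZT8 replicate 2, so the split of reads between them is uncertain. The same holds for Hoxc10 with Hoxc5 and for Hoxd3 with Hoxd4, which share exon sequence on the same strand, and thus for the steps next to these genes.

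**Figure D2:**
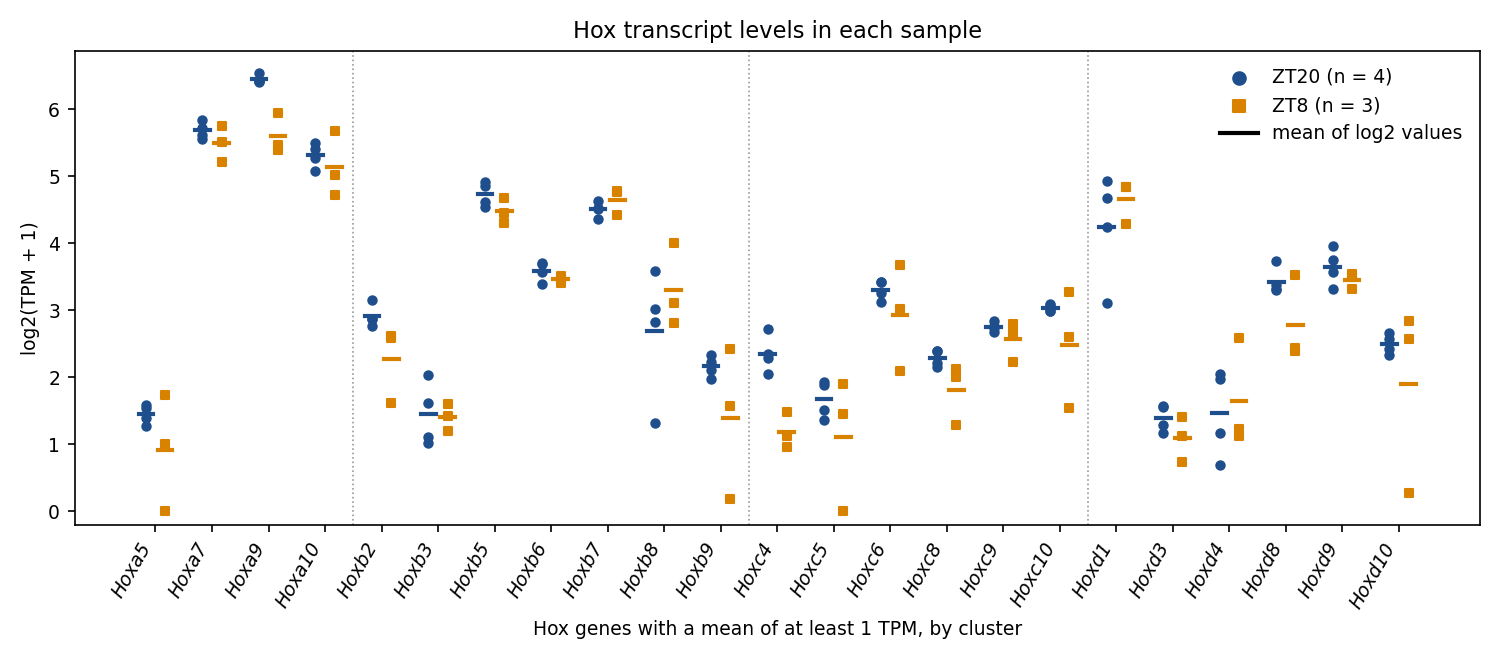
TPM, on a log2(TPM + 1) axis, of the Hox genes whose mean was 1 TPM or more in each of the 7 samples, ordered by cluster and paralog number, with blue circles for ZT20, orange squares for ZT8 and a bar for the mean of the log2 values. The Hoxa9 points of the groups are apart at 83.7 to 92.4 and 41.0 to 60.8 TPM, and those of most other genes overlap.

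Groups 11 to 13 act from the sacral level to the tail and in the distal limbs, and little of them was found. Hoxd11 was at 0.882, 0.863, 1.12 and 0.630 TPM at ZT20 and 1.20, 0.881 and 1.04 TPM at ZT8. Hoxc11 was at 0.321, 0.659, 0.0844 and 0.131 TPM at ZT20 and 0.412, 0 and 0.772 TPM at ZT8. Both overlapped between the groups, and Hoxd11 was above 0 in every sample and shares exon sequence with Gm28309. Hoxb13 reached 0.0184 and 0.0913 TPM in ZT20 replicates 1 and 2 and was listed at 0 in the other samples. Summed over genes, group 11 reached 1.28 TPM on average, group 12 0 and group 13 0.0157 TPM.

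Neighbours within a cluster often differed sharply, and these steps were compared within each sample by an exact two-sided sign-flip permutation test on log2(TPM + 1), whose smallest p with 7 samples is 0.0156. Of 35 neighbouring pairs, 3 had both genes at 0, and 23 of the other 32 passed after Benjamini-Hochberg adjustment, 8 rising and 15 falling toward the tail. In 4 of the 23 pairs (Hoxb1 with Hoxb2, Hoxa10 with Hoxa11, Hoxc11 with Hoxc12 and Hoxd11 with Hoxd12) 1 gene was listed at 0 in every sample, so the direction was fixed and the test is void for them. With these left out, a choice made after seeing the data, 19 of 28 pairs passed, 7 rising and 12 falling. The falls still held Hoxb9 to Hoxb13, whose direction was all but fixed. Hoxb13 was at 0.0913 TPM or below in every sample, and Hoxb9 at 0.138 TPM or above. The largest rises of those described here were from Hoxa6 to Hoxa7, by 5.14, and from Hoxb4 to Hoxb5, by 4.11 (exact adjusted p = 0.0278 for each, in 7 of 7 samples). Hoxd1 to Hoxd3 fell by 3.15 in 7 of 7 samples (exact adjusted p = 0.0278).

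At the tail end, Hoxc10 to Hoxc11 fell by 2.40 (exact adjusted p = 0.0278, in 7 of 7 samples). Hoxa10 averaged 37.5 TPM and Hoxa11 was listed at 0, which has no test. In cluster D, Hoxd9 to Hoxd10 fell by 1.32 in 7 of 7 samples (exact adjusted p = 0.0278) and Hoxd10 to Hoxd11 by 1.29 in 6 of 7 (exact adjusted p = 0.0435). Hoxa9 to Hoxa10 also fell, by 0.85 in 6 of 7 samples (exact adjusted p = 0.0435). Pairs that did not pass included Hoxa7 with Hoxa9 (higher by 0.48 in Hoxa9, exact adjusted p = 0.0600), Hoxc9 with Hoxc10 (0.12, exact adjusted p = 0.717) and Hoxd8 with Hoxd9 (0.41, exact adjusted p = 0.154). None of the 19 mean steps changed sign without ZT20 replicates 3 and 4 or without ZT8 replicate 2. Without ZT8 replicate 2, Hoxa9 to Hoxa10 no longer passed (lower in 5 of 6 samples, exact adjusted p = 0.0800). Hoxc9 to Hoxc10 then passed, higher by 0.35 in 6 of 6 samples (exact adjusted p = 0.0435). With the 5 samples left without ZT20 replicates 3 and 4, the smallest exact p is 0.0625, so no step can pass.

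**Figure D3:**
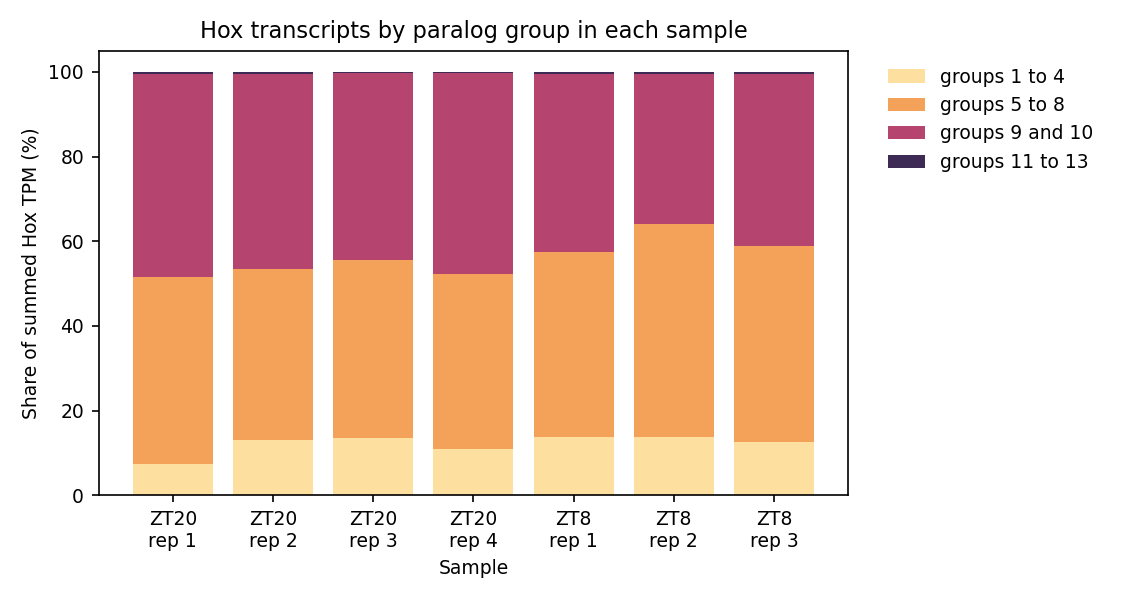
Share of the summed Hox TPM held by 4 bands of paralog groups (1 to 4, 5 to 8, 9 and 10, 11 to 13) in each of the 7 samples, as stacked bars from 0 to 100%. Groups 9 and 10 hold 44.1% to 48.1% at ZT20 and 35.6% to 42.0% at ZT8, and groups 11 to 13 at most 0.570%.

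The 39 genes together summed to 341 ± 16.4 TPM at ZT20 (SD, n = 4) and 278 ± 41.3 TPM at ZT8 (SD, n = 3). Cluster A, on chromosome 6, held 44.4% to 56.6% of the sum in each sample, and cluster B, on chromosome 11, held 21.6% to 27.8%. Cluster D, on chromosome 2, held 11.0% to 19.5%, and cluster C, on chromosome 15, held 6.33% to 10.4%. Cluster A thus contributed the most in every sample. Hoxa9 was the highest single gene in 6 samples and Hoxa7 in ZT8 replicate 3. The order of the 39 genes was similar between samples. Of the genes, 7 were at 0 in every sample and 9 others averaged below 1 TPM, which by itself favours a high rank correlation. Spearman's rho over the genes, which are no independent replicates, ran from 0.964 to 0.993 for the 6 pairs of ZT20 samples. It ran from 0.859 to 0.967 for the 3 pairs of ZT8 samples and from 0.870 to 0.975 for the 12 pairs across groups. ZT8 replicate 2 had 24 members above 0, against 28 and 30 in the other ZT8 samples and 31 or 32 at ZT20, and 4 members were at 0 in it alone.

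The comparison of ZT20 with ZT8 asks whether the time of day at which nerves were injured and ganglia collected goes with a difference in transcript levels. Among all 14800 genes whose mean was 1 TPM or more, 16.4% differed (limma on log2(TPM + 1), adjusted p under 0.05), 12.8% being higher at ZT20 and 3.61% lower. Of the 23 Hox genes tested, 2 differed, which is 8.70%, with 0 lower and both higher at ZT20: Hoxa9 and Hoxc4. The difference from the share of all genes amounts to few genes and was not tested. The median log2 difference of the 23 was 0.31, beside 0.23 for all tested genes, and 19 were positive and 4 negative. That split depends on the scaling, at 13 and 10 with median-ratio scaling and 14 and 9 with quantile normalization.

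Hoxa9 (ENSMUSG00000038227) averaged 86.3 ± 4.08 TPM at ZT20 (SD, n = 4), which was 1.78 times the 48.3 ± 10.9 TPM at ZT8 (SD, n = 3). Its log2 difference was 0.84 (SE 0.16; limma adjusted p = 0.0118). It passed in 15 of 17 alternative settings, with log2 differences from 0.61 to 1.02 and limma adjusted p from 0.00936 to 0.168. Without ZT20 replicates 3 and 4 it was 0.88 with a limma adjusted p of 0.168. The other setting that did not pass combined the replicate block with a length and GC correction (0.64, limma adjusted p = 0.0690).

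Hoxc4 (ENSMUSG00000075394), a gene of the neck level, rose from a low base. It was at 4.09, 3.89, 3.16 and 5.58 TPM at ZT20 and 1.18, 1.78 and 0.948 TPM at ZT8, with no overlap. It averaged 4.18 ± 1.01 TPM at ZT20 (SD, n = 4) against 1.30 ± 0.431 TPM at ZT8 (SD, n = 3). The ratio was 3.21, and the log2 difference was 1.17 (SE 0.26; limma adjusted p = 0.0208). This call is the less stable of the 2, passing in 7 of 16 alternative settings with limma adjusted p from 0.0107 to 0.220. It was lost on leaving out ZT20 replicate 1 (limma adjusted p = 0.0605), replicate 3 (0.0521), replicate 4 (0.0730) or ZT8 replicate 3 (0.0558), and without ZT20 replicates 3 and 4 together (0.220).

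Of the 23 tested genes, 4 (17.4%) had every ZT20 sample above every ZT8 sample: Hoxa9, Hoxc4, Hoxb2 and Hoxc8. Among all tested genes 33.2% did not overlap between the groups, 24.5% lying wholly higher at ZT20 and 8.72% wholly lower. Hoxb2 differed by 0.64 on the log2 scale (SE 0.28; limma adjusted p = 0.147) and Hoxc8 by 0.48 (limma adjusted p = 0.228). Wholly lower were 0 of the 23. Hoxd8 did not pass at 0.65 (SE 0.30; limma adjusted p = 0.164), but passed without ZT8 replicate 2 at 1.01 (limma adjusted p = 0.0107).

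The lumbar genes of group 10 did not pass the test. The log2 difference was 0.17 for Hoxa10 (SE 0.23; limma adjusted p = 0.617), 0.56 for Hoxc10 (SE 0.37; limma adjusted p = 0.305) and 0.60 for Hoxd10 (SE 0.56; limma adjusted p = 0.468). The 4 genes with negative values were Hoxb8 at −0.62, Hoxd1 at −0.41, Hoxd4 at −0.18 and Hoxb7 at −0.14, with limma adjusted p of 0.420, 0.489, 0.810 and 0.539. Missing the threshold does not show that the levels of these genes were equal.

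**Figure D4:**
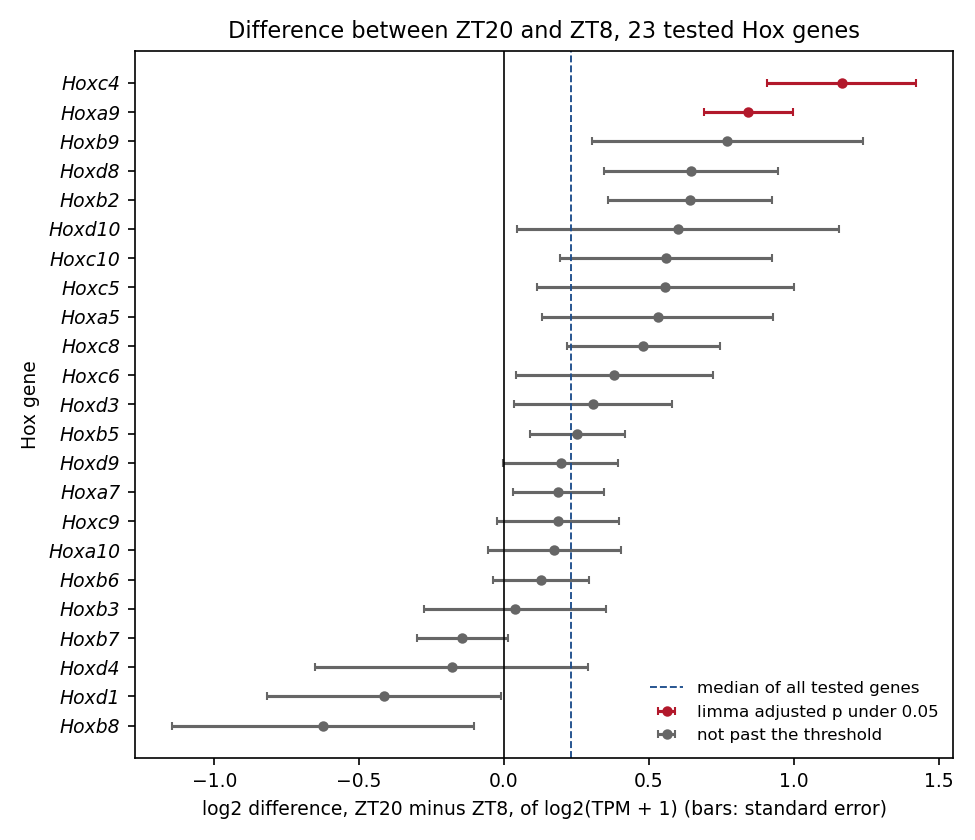
Log2 difference (ZT20 minus ZT8) of the 23 tested Hox genes, in order of size, with the standard error from limma as bars and the median of all tested genes (0.23) as a dashed line. Red points mark Hoxa9 (0.84) and Hoxc4 (1.17), which passed, and the other 21 range from −0.62 to 0.77.

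In bulk RNA from mixed cells, fewer cells of a type and less RNA per cell cannot be told apart, and Hox genes are active in several cell types of the trunk. Markers of sensory neurons (10 of 10 tested, 1 higher at ZT20, Pou4f1) summed to 13531 to 17507 TPM at ZT20 and 10268 to 16173 TPM at ZT8. Of 8 tested markers of satellite glia and Schwann cells, 2 were lower at ZT20, Fabp7 among them. The 8 summed to 2104 to 2487 TPM at ZT20 and 2609 to 2937 TPM at ZT8, with no overlap. With a marker score as covariate Hoxa9 differed by 0.87 (limma adjusted p = 0.0211) and Hoxc4 by 1.24 (limma adjusted p = 0.0250). The part of neurons and glia in the differences of Hoxa9 and Hoxc4 was not tested.

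The sums of the other marker lists overlapped between the groups. Fibroblast markers (5 of 8 tested, 0 passing) summed to 83.1 to 120 TPM at ZT20 and 90.5 to 207 TPM at ZT8. Blood and immune markers (12 tested, 1 lower, Mzb1) summed to 1973 to 4553 and 1044 to 7258 TPM. Endothelial and pericyte (blood vessel) markers (3 of 6 tested, 0 passing) summed to 79.0 to 110 and 44.6 to 83.8 TPM. Most of this was the pericyte gene Rgs5, at 74.2 to 104 TPM at ZT20 and 42.6 to 81.0 TPM at ZT8. The endothelial genes Pecam1, Cdh5, Cldn5 and Kdr reached at most 1.98 TPM in any sample. Spinal cord also expresses Hox genes. Of 12 markers of spinal cord cells, 1 reached a mean of 1 TPM, the astrocyte water channel Aqp4, at 5.68 to 8.63 TPM at ZT20 and 0.189 to 12.5 TPM at ZT8. The motor neuron marker Mnx1 and the oligodendrocyte marker Olig2 were listed at 0 in every sample. The part of the neuronal, glial, fibroblast, immune, endothelial, pericyte and spinal cord cells in the Hox levels was not tested.

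HOX proteins bind DNA together with partner homeodomain proteins of the PBX, MEIS and PKNOX families. Of 8 such genes tested 1 was higher at ZT20 and 0 were lower, beside 12.8% and 3.61% of all tested genes. A count of 1 in 8 is near that share and is no result about the partners as a set. The 1 gene was Meis1, at 5.63, 6.61, 5.79 and 8.58 TPM at ZT20 and 2.82, 1.80 and 1.63 TPM at ZT8, with no overlap. The ratio of the means was 3.19 and the log2 difference 1.31 (SE 0.24; limma adjusted p = 0.0118). A correction for transcript length and GC content ended the call (0.73, limma adjusted p = 0.0750). It was also lost without ZT20 replicates 3 and 4 (1.22, limma adjusted p = 0.186) and with the replicate block (limma adjusted p = 0.0617).

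The most abundant partner of each family did not pass. Pbx4 was at 15.8 to 23.9 TPM at ZT20 and 20.9 to 24.8 TPM at ZT8 (log2 difference −0.28; limma adjusted p = 0.283). Meis3 was at 50.0 to 57.7 and 44.5 to 56.9 TPM (0.13; limma adjusted p = 0.499). Pknox2 was at 28.7 to 44.1 and 12.3 to 25.8 TPM without overlap (0.82, SE 0.26; limma adjusted p = 0.0647), and passed without ZT8 replicate 1 (1.02, limma adjusted p = 0.0485). The median log2 difference of the 8 partner genes was 0.76, beside 0.23 for all tested genes, and the gap between these medians was not tested.

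**Figure D5:**
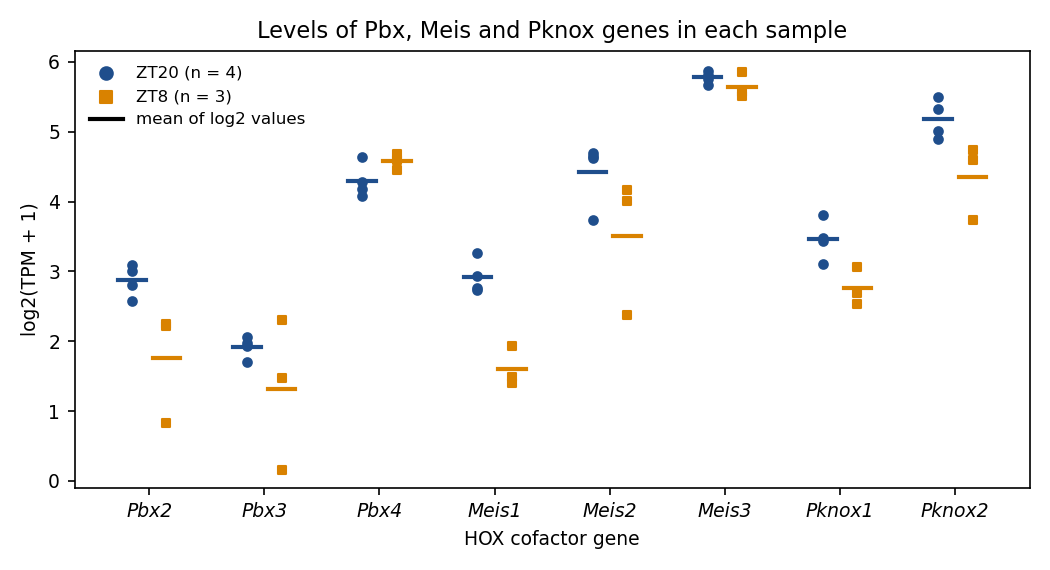
TPM, on a log2(TPM + 1) axis, of 8 tested PBX, MEIS and PKNOX genes in each sample, with blue circles for ZT20, orange squares for ZT8 and a bar for the mean of the log2 values. Meis1 lies higher at ZT20 in all 4 samples (5.63 to 8.58 TPM, against 1.63 to 2.82 TPM at ZT8), and Meis3 overlaps.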

How the data were processed

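RNA sequencing was done on neuron-enriched lumbar ganglia, 4 samples at ZT20 and 3 at ZT8, grouped by sample title. The authors deposited 1 table of TPM with 54309 Ensembl genes (1281 without a symbol), all 7 sample columns of which were used (0 unused). FastQC 0.11.9, Trim Galore 0.6.6, Salmon 1.6.0, DESeq2 1.34.0 and the build GRCm39 are named in the submitters' processing notes, without their roles. TPM gives no depth, so no counting interval is printed.

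Genes averaging 1 TPM or more (14800) were tested on log2(TPM + 1), which understates changes of low genes, with limma 3.58.1 in R 4.3.3 (eBayes with trend, two-sided, Benjamini-Hochberg adjustment over all tested genes, threshold 0.05), as ZT20 minus ZT8 without covariates. The procedure was tested on simulated data. Transcript length, GC content and exon overlap came from GENCODE M21 (GRCm38), matched by identifier for all 39 Hox genes. No gene coordinates are given from it because the builds differ. Promoters came from RefSeq, and their coordinates are on GRCm38.p6, not on the GRCm39 of the processing notes. Tables and figures were made with pandas 2.3.3 and matplotlib 3.10.9 in Python 3.11.15.

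The members, gene lists and tests were chosen with earlier results of these data known. Every Hox gene with a mean of at least 1 TPM was to be named. Values in every sample were to be given for those with a mean of at least 5 TPM, those past the threshold, and the highest-numbered member above 0 of each cluster. Of the partners, those past the threshold and the most abundant of each family were to be named. Some genes are not reported here. Alternatives were scaling by median ratio, quantile normalization, a length and GC correction (loess, span 0.3), testing every gene above 0 or only those averaging 5 TPM or more, a pseudocount of 0.1, the replicate block, a marker score as covariate, leaving out each replicate, and leaving out ZT20 replicates 3 and 4.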

Additional observations from a re-analysis of the deposited data

Results flagged for a closer look

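In 3 of 37 sets of 4 samples, 1 sample lay farther from the others than Dixon's critical value for 4 samples allows, as the share of the range taken by its gap. Chance gives about 1.85 among 37. All 3 were ZT20 replicate 2. Its Hoxa9 level was 92.4 TPM, against 83.7 to 84.5 TPM in the other ZT20 samples (share 0.901). Its Hoxd8 level was 12.3 TPM, against 8.85 to 9.36 TPM (share 0.851). Its level of Meis2, a partner of HOX proteins, was 12.3 TPM, against 23.6 to 24.8 TPM (share 0.905).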

How the results depend on the processing

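Among all tested genes 2433 differed. The count was 1178 without a filter, 1304 with the length and GC correction (528 higher and 776 lower, against 1899 and 534), and 0 without ZT20 replicates 3 and 4 (2378 at an unadjusted limma p under 0.05). The split also moved with median-ratio scaling (1128 and 1160) and quantile normalization (1023 and 814), and leaving out 1 replicate gave 723 to 3047 (723 without ZT20 replicate 3, 855 without replicate 4, 1132 without replicate 1). The Hox count of 2 became 1 (Hoxa9) without a filter, with a mean of at least 5 TPM, with quantile normalization and with the replicate block. It became 0 with the block plus length and GC correction and without ZT20 replicates 3 and 4 (3 and 2 at an unadjusted limma p under 0.05), and was 1 to 3 with 1 replicate left out. The partner count of 1 became 0 with a mean of at least 5 TPM, where Meis1 was not tested (2 others at an unadjusted limma p under 0.05). It became 0 with the length and GC correction, the block, both, and without ZT20 replicates 3 and 4 (3, 4, 2 and 1 at an unadjusted limma p under 0.05). It was 1 to 2 with 1 replicate left out, with Pknox2 added without ZT8 replicate 1 and Pknox1 without ZT8 replicate 2. The cause was not tested.

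The replicate block gave 1174 genes, and 520 with the length and GC correction. Samples with the same number share only that number: their deviations correlated at −0.0141, 0.153 and 0.0830, and ZT20 replicate 4 has no partner.

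The 23 steps between neighbours became 19 without pairs that hold a gene at 0 in every sample, an alternative chosen after seeing the data, and 0 to 23 with 1 replicate left out, since 6 samples allow an exact p no lower than 0.0313. It was 23 without ZT8 replicate 2 and 0 without each of the other 6, and 0 without ZT20 replicates 3 and 4, where no step can pass. The number of Hox genes above the level limit was 14 at 5 TPM and 25 at 0.5 TPM, against 23 at 1 TPM, and 23 to 23 with 1 replicate left out. Their mean sum of 314 TPM became 306 to 327.

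Signs of small differences changed without any of them passing. With median-ratio scaling, which moved the median of all genes from 0.23 to 0.033, Hoxa7 (−0.041), Hoxa10 (−0.053), Hoxb3 (−0.11), Hoxb6 (−0.085), Hoxc9 (−0.012), Hoxd9 (−0.017) and Meis3 (−0.095) turned negative. With quantile normalization (median 0.0046) Hoxa10 (−0.0098), Hoxb3 (−0.34), Hoxb6 (−0.19), Hoxc9 (−0.15) and Hoxd9 (−0.12) did. Hoxb3 was −0.25 with the length and GC correction (median −0.0083), −0.16 with the block, −0.42 with both, and −0.35 without ZT20 replicates 3 and 4. With both, Hoxa10 was −0.035 and Hoxd9 −0.058, and without those replicates Hoxd9 was −0.0051. With 1 replicate left out, Hoxa10 ranged from −0.038 to 0.44, Hoxb3 from −0.16 to 0.18, Hoxc5 from −0.0016 to 0.95, Hoxc6 from −0.034 to 0.75, Hoxd4 from −0.44 to 0.29 and Hoxd10 from −0.21 to 1.07. Over the single genes, 274 values in other settings kept their direction and side of the threshold, 14 lost the threshold and 19 changed sign. With 1 replicate left out these numbers were 206, 6 and 9, and 3 gained the threshold.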

Other observations

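The Hox clusters also yield noncoding RNAs, of which 20 were listed, 16 were in the table and 6 had a mean of at least 1 TPM. Hoxaas2, transcribed in cluster A, was at 2.71, 2.64, 2.77 and 2.24 TPM at ZT20 and 0.856, 0 and 0.328 TPM at ZT8, with no overlap (log2 difference 1.41, SE 0.28; limma adjusted p = 0.0153). It was the only one of the 6 past the threshold, and passed in 11 of 16 alternative settings (limma adjusted p from 0.0127 to 0.201). It was lost with the replicate block (0.0603), with the block plus length and GC correction (0.0972), and without ZT20 replicate 1 (0.05004), replicate 3 (0.0597) or replicates 3 and 4 (0.201). Haglr, from cluster D, was at 11.2 to 20.1 TPM and Hotairm1, from the head end of cluster A, at 3.26 to 8.99 TPM. Hotair, from cluster C, reached at most 0.283 TPM, and Hottip, from the tail end of cluster A, was listed at 0 in every sample, as were 6 genes of short miRNAs.

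Homeobox genes that flank the clusters or act above them in the embryo were listed at or near 0. Evx1, Evx2, Cdx2 and Cdx4 were listed at 0 in every sample, and Cdx1 reached at most 0.188 TPM. Of 10 listed neighbours of the clusters with other functions, 8 were in the table and 6 were tested. Lnpk, beside cluster D, which encodes a protein of endoplasmic reticulum junctions, was higher at ZT20 at 51.4, 43.1, 62.6 and 62.4 TPM, against 26.0, 33.6 and 25.5 TPM at ZT8 (log2 difference 0.92, SE 0.18; limma adjusted p = 0.0137). The median log2 difference of the 6 neighbours was −0.10, beside 0.23 for all tested genes. Without ZT20 replicates 3 and 4, neither Hoxaas2 nor Lnpk passed, as 0 of all tested genes did with limma (2378 at an unadjusted p under 0.05).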
